A study of Mus musculus with 6 samples.

Results

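The TGF-beta, BMP and activin ligands are secreted growth factors of one superfamily, and 10 of their genes were followed here: the TGF-beta genes Tgfb1, Tgfb2 and Tgfb3, the bone morphogenetic protein genes Bmp2, Bmp4, Bmp6, Bmp7 and Bmp10, the activin A subunit gene Inhba, and the myostatin gene Mstn. They were chosen by name among the 54532 Ensembl gene IDs of the expression table, each through its symbol in GENCODE M21. RNA-seq had been performed on primary cardiomyocyte cultures from hearts of neonatal mice (1 to 3 days old) that carry a Cre-inducible Rit1 M90I locus, where Cre recombinase turns on the M90I form of RIT1, a RAS-related GTPase altered in Noonan syndrome. On day 3 after isolation, 3 cultures received an adenovirus encoding GFP and are labelled Rit1 +/+ (AdGFP), and 3 cultures received one encoding GFP-Cre and are labelled Rit1 M90I/+ (AdCre). All 6 cultures were grown in the same serum-containing medium, carried the inducible locus and were infected, and RNA was harvested on day 6 after infection. Cells were enriched by letting other cells attach to plastic first, not by a sort, so the cultures may hold several cell types, and in such bulk samples fewer cells of a type and less RNA per cell cannot be told apart. There was no culture without the inducible locus that received Cre, so the variant and Cre itself cannot be told apart either.

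Ligands of this superfamily are made as precursors, cleaved by furin-type proteases and released as dimers that join type I and type II receptor kinases. TGF-beta, activin and myostatin signal mainly through SMAD2 and SMAD3, and BMPs through SMAD1, SMAD5 and SMAD9, with SMAD4 as the shared partner. In the heart, TGF-beta is known for driving fibroblasts to make matrix, BMP2 and BMP4 for forming valves and cushions, and BMP10 for the growth of the trabecular muscle of the embryo.

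The promoters of 2 ligands show how different the start regions within the family are, and they are given for Inhba, which is among the ligands described below as higher in AdCre with paired samples, and for Tgfb1, the ligand above the filter whose groups did not overlap. The RefSeq promoter table (GRCm38.p6) held 7 of the 10 ligands. Bmp2, Bmp7 and Tgfb3 had no entry. The sequences below are the 250 bases before the annotated start, 5′ to 3′ on the strand of the gene. Capitals mark TATAAA (the letters of a TATA box, wherever they stand) in Inhba and GGGCGG or its reverse complement CCGCCC (the GC box bound by SP1) in Tgfb1.
Inhba, chr13:16011601-16011850, plus strand: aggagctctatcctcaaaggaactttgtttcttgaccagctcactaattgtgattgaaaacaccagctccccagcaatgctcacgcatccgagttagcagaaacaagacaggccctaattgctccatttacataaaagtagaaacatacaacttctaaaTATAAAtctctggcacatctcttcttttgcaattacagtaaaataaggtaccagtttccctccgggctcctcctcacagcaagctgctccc
Tgfb1, chr7:25686752-25687001, plus strand: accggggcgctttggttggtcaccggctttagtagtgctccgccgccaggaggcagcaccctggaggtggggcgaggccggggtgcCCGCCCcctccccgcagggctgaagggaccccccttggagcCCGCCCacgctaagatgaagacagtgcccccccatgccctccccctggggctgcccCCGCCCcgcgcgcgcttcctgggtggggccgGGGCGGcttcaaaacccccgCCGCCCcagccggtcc

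The Inhba stretch has 43.2% G and C and 1 TATAAA, which begins 91 bases before the annotated start. The Tgfb1 stretch has 75.2% G and C, no TATAAA and 5 GC boxes, of which 1 reads GGGCGG on the strand shown and 4 read it on the other. Over the whole 300-base windows of the table (250 before and 50 after the start, both strands searched), TATAAA stood in 3 of the 7 ligands (Mstn, Tgfb2 and Inhba) and in 13.62% of all 32851 promoters. Relative to the annotated start the match begins at −29 in Mstn, at −31 in Tgfb2 and farther off, at −91, in Inhba. The GC box stood in 3 of 7 (Tgfb1, Bmp6 and Bmp4) against 35.66% of all promoters. The AP-1 motif TGANTCA stood in 1 of 7 (Mstn) against 7.808%, the ETS motif CCGGAAG in 1 of 7 (Bmp4) against 8.858%, and the SMAD palindrome GTCTAGAC in 0 of 7 against 0.2131%. No matches of different motifs overlapped in these ligand promoters, and a match is a description of the letters only.

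Values are FPKM, fragments counted on a gene's exons divided by exon length and library size, so they can be compared between genes as levels per length. FPKM times exon length came out as whole reads for 97.3% of the genes listed above 0, and these summed to between 24.7 M and 31.6 M reads per sample. Rit1 itself, at 7.66 to 9.01 FPKM in AdGFP and 8.90 to 9.58 FPKM in AdCre, did not separate the groups, and gene-level values cannot show the M90I base change. Of the cardiomyocyte markers, 8 of 8 were expressed in every sample, but fibroblast, endothelial, mural, epicardial or mesothelial, and macrophage markers were also detected, and only the macrophage marker Ptprc was below the level needed for testing. The first principal component held 40.2% and the second 27.9% of the variance. The samples carry numbers 1 to 3 in both groups, and same-numbered samples deviated together (correlations of 0.57, 0.27 and 0.51), so the comparison was also run with the replicate number as a block, that is, as differences within 3 numbered pairs.

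Among the ligands, Tgfb3 and Inhba were the most abundant transcripts, Tgfb2 and Tgfb1 came next, and the BMPs lay lower (see the plot of ligand transcripts by sample). In AdGFP the order of mean levels was Tgfb3 at 44.4 ± 8.73 FPKM (SD, n = 3, as for all means here), Inhba at 36.5 ± 7.47, Tgfb2 at 21.5 ± 4.28, Tgfb1 at 15.7 ± 1.77, Bmp6 at 8.08 ± 2.48, Bmp4 at 7.27 ± 3.33, Bmp7 at 4.01 ± 1.57, Bmp2 at 3.11 ± 1.66, Mstn at 0.222 ± 0.078 and Bmp10 at 0.128 ± 0.076. The ranges of Tgfb3 and Inhba overlapped, as did those of each neighbouring pair from Bmp6 down to Bmp2, and those of Mstn and Bmp10. In AdCre the order was Inhba at 48.3 ± 6.13 FPKM, Tgfb3 at 44.0 ± 8.14, Tgfb2 at 23.6 ± 3.41, Tgfb1 at 19.4 ± 0.691, Bmp7 at 8.41 ± 3.23, Bmp4 at 8.27 ± 3.68, Bmp6 at 8.19 ± 3.00, Bmp2 at 3.49 ± 0.686, Bmp10 at 0.358 ± 0.106 and Mstn at 0.060 ± 0.060. There the overlapping neighbours were Inhba and Tgfb3, Bmp7 and Bmp4, and Bmp4 and Bmp6. Inhba and Tgfb3 thus changed places at the head of the list between neighbours whose ranges overlapped in both groups.

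**Figure D1:**
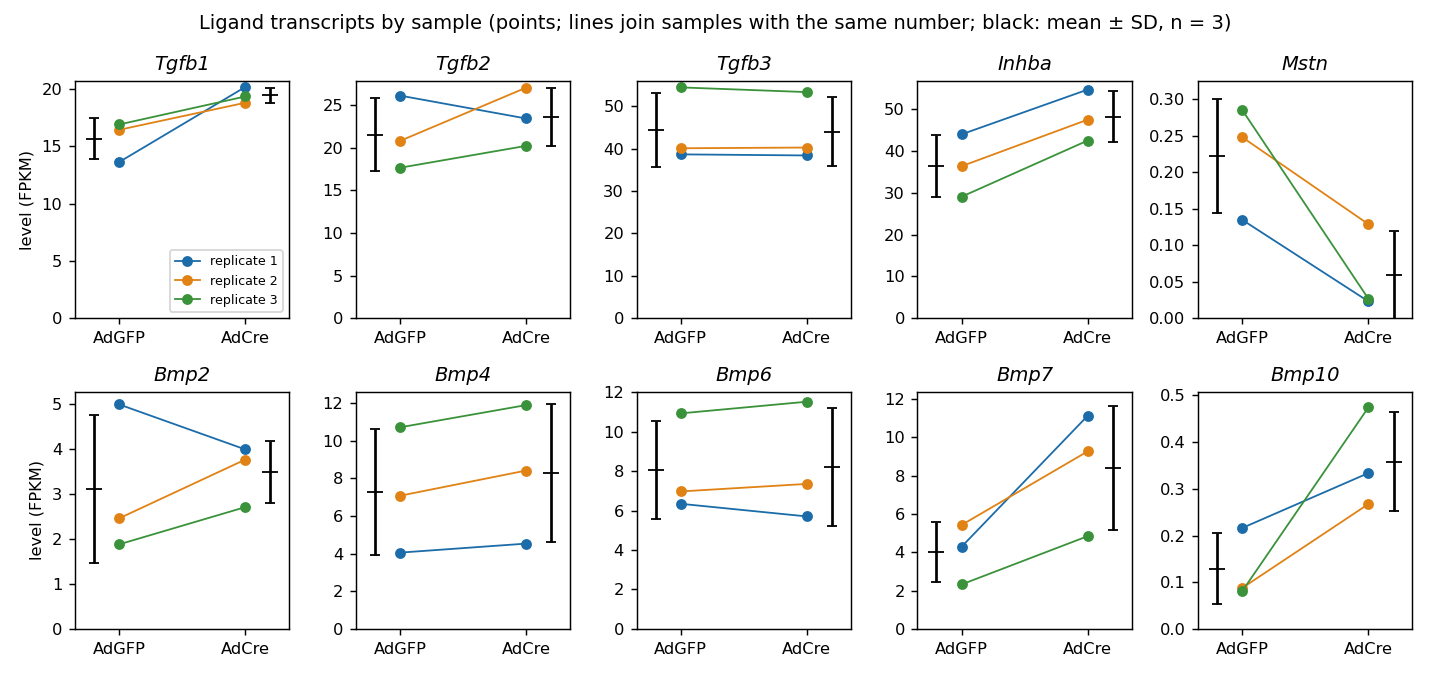
Level of each ligand transcript in FPKM (vertical axis, from 0) in the 3 AdGFP and 3 AdCre samples, with lines joining samples that carry the same number and black marks for the mean ± SD (the lower SD bar of Mstn in AdCre is cut at 0). All 3 lines climb for Tgfb1, Inhba, Bmp4, Bmp7 and Bmp10, all 3 go down for Mstn, and Tgfb3 is nearly flat within each pair.

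Summed over the 10 ligands, the level was 142.4, 136.0 and 144.2 FPKM in AdGFP 1 to 3 and 162.4, 162.8 and 166.8 FPKM in AdCre 1 to 3. The sum was therefore higher in every AdCre sample than in any AdGFP sample. Taken singly, 7.36% of all genes tested (below) were higher in AdCre without overlap, and of the 8 tested ligands 1 was, Tgfb1. The sum follows its abundant members, and the mean of Inhba alone went from 36.5 FPKM in AdGFP to 48.3 FPKM in AdCre. Inhba made up 20.2% to 30.9% of it in AdGFP and 25.5% to 33.7% in AdCre, and Bmp7 1.61% to 3.99% and 2.90% to 6.85%. The 3 TGF-beta genes and Inhba together carried most of the sum, with Tgfb3 alone at between 23.6% and 37.7% over the 6 samples.

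Of the 10 ligands, 8 had a mean of at least 0.5 FPKM over the 6 samples and were tested with limma over all 13794 genes that passed this filter, with Benjamini-Hochberg adjustment. Without the block, 0 of 8 ligands passed an adjusted p of 0.05, and neither did any in voom on the recovered reads. Over all genes 1 of 13794 passed in limma without the block (0.00725%), and 0 of 13230 in voom without it. At an unadjusted p under 0.05 stood 2 of 8 ligands, Bmp7 and Tgfb1, both higher in AdCre, against 10.2% of all genes tested (4.71% higher and 5.45% lower). With the replicate block, 2 of 8 ligands, Bmp7 and Inhba, were called higher in AdCre and 0 lower, against 2.64% of all genes called higher and 3.51% called lower (6.15% in all). In voom with the block these were again 2 ligands higher and 0 lower, against 4.91% and 6.38% of all genes (11.3% in all). In the blocked limma fit with no filter on low values, or with no intensity trend, 0 of the 8 were called. The block calls numbered 2, 1 and 0 ligands when pair 1, 2 or 3 was left out, and over all genes 772, 149 and 1. The fitted log2 fold change was above 0 for 7 of the 8, with a median of 0.22 against −0.0022 over all genes.

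**Figure D2:**
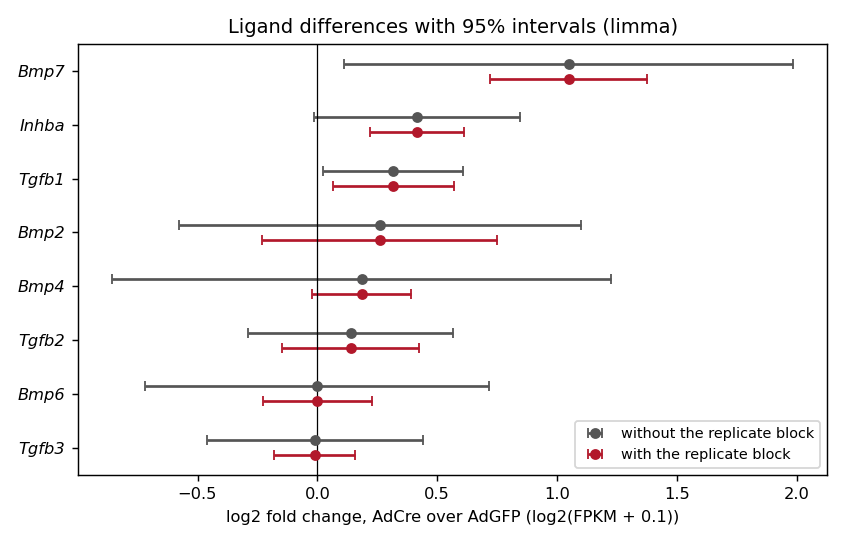
Log2 fold change of the 8 tested ligands (horizontal axis, AdCre over AdGFP on the log2(FPKM + 0.1) scale) with 95% intervals from limma, without the replicate block (grey) and with it (red). With the block, the intervals of Bmp7, Inhba and Tgfb1 lie above 0, and those of the other 5 ligands include 0.

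Bmp7 (ENSMUSG00000008999, chr2:172868012-172940321, minus strand, GRCm38), a BMP known for kidney and eye development and for opposing TGF-beta in fibrosis models, had the largest difference of the tested ligands. It stood at 4.29, 5.43 and 2.32 FPKM in AdGFP 1 to 3 and at 11.1, 9.27 and 4.84 FPKM in AdCre 1 to 3. Every AdCre sample was above the AdGFP sample of the same number, but the ranges overlapped, since AdCre 3 lay below AdGFP 2. The fold change was 2.07 (log2 1.05, SE 0.396, 95% interval of the fold 1.08 to 3.96), with an adjusted p of 0.45 in limma. With the replicate block the SE was 0.133, the interval of the fold 1.65 to 2.60 and the adjusted p 0.021. The blocked adjusted p was 0.018, 0.049 and 0.103 without pair 1, 2 and 3, and 0.083 with no filter and 0.073 with no trend.

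The activin and myostatin branch held 1 abundant ligand and 1 near the limit of detection. Inhba (ENSMUSG00000041324, chr13:16011851-16031621, plus strand), which encodes the beta A chain that pairs with itself to form activin A, stood at 44.0, 36.4 and 29.1 FPKM in AdGFP and at 54.7, 47.5 and 42.5 FPKM in AdCre. Sample 1 was the highest and sample 3 the lowest in both groups, each AdCre sample exceeded its AdGFP counterpart, and the ranges overlapped by 1 sample a side (AdGFP 1 above AdCre 3). The fold change was 1.33 (log2 0.41, SE 0.181, interval of the fold 0.990 to 1.79), with an adjusted p of 0.51 in limma. With the block it was called, with an SE of 0.079, an interval of 1.16 to 1.53 and an adjusted p of 0.044, and this call was kept without pair 1 (0.046) but not without pair 2 (0.15) or pair 3 (0.17), with no filter (0.114) or with no trend (0.120).

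Mstn (chr1:53061640-53068079, plus strand), which encodes myostatin, a brake on muscle growth, was below the filter and had no main test. It stood at 0.135, 0.248 and 0.285 FPKM in AdGFP (9, 17 and 19 reads) and at 0.023, 0.129 and 0.027 FPKM in AdCre (2, 9 and 2 reads). The groups did not overlap, and the reads summed to 45 in AdGFP and 13 in AdCre, a ratio per sequenced read of 0.264 with a counting interval of 0.130 to 0.497 (95%, exact, counting error only). Fitted without a filter, the log2 difference was −1.05 with an adjusted p of 0.59 in limma, and the blocked fit did not call it either. Among the 4608 genes below the filter with a mean of at least 0.1 FPKM, 13.7% had groups that did not overlap, the background against which this separation is to be read.

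The 3 TGF-beta genes differed from one another more than between the groups. Tgfb1 (ENSMUSG00000002603, chr7:25687002-25705077, plus strand), the isoform best known in fibrosis and immune control, stood at 13.6, 16.4 and 16.9 FPKM in AdGFP and at 20.2, 18.8 and 19.4 FPKM in AdCre. Its groups did not overlap, as was so for 15.4% of all genes tested (7.36% higher and 8.02% lower). It was the only 1 of the 8 tested ligands with this property. The fold change was 1.24 (log2 0.32, SE 0.123, interval of the fold 1.02 to 1.52), with an unadjusted p of 0.037 and an adjusted p of 0.45 in limma, and with the block the adjusted p was 0.13. Pair 1 carried the widest difference, 0.56 on the log2 scale, while pairs 2 and 3 gave 0.19 each.

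Tgfb2 (chr1:186622792-186705989, minus strand), the isoform most tied to heart development, stood at 26.1, 20.8 and 17.6 FPKM in AdGFP and at 23.4, 27.0 and 20.2 FPKM in AdCre. It was higher in AdCre in 2 of 3 pairs and lower in pair 1, with a fold of 1.10 (interval 0.818 to 1.48) and an adjusted p of 0.88 in limma. Tgfb3 (chr12:86056745-86079041, minus strand), known for palate fusion and for epithelial to mesenchymal change in the cushions, stood at 38.6, 40.1 and 54.4 FPKM in AdGFP and at 38.4, 40.2 and 53.3 FPKM in AdCre. Same-numbered samples were nearly equal, with an SD of the 3 pair differences of 0.018 on the log2 scale, while samples of 1 group differed with SDs of 0.27 and 0.26. The fold was 0.99 (log2 −0.01, interval of the fold 0.727 to 1.36 without and 0.883 to 1.12 with the block), and 12.4% of its exon bases lie opposite exons of genes on the other strand, which cannot be separated where the counting did not use strand. As shares of the 3 isoforms, Tgfb3 made up 49.3% to 61.2% in AdGFP and 46.7% to 57.4% in AdCre, Tgfb2 19.8% to 33.3% and 21.8% to 31.4%, and Tgfb1 17.4% to 21.3% and 20.8% to 24.6%.

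Among the other BMPs no difference passed the test. Bmp2 (chr2:133552159-133562885, plus strand), a ligand of the atrioventricular cushions, stood at 5.00, 2.46 and 1.88 FPKM in AdGFP and at 3.996, 3.77 and 2.71 FPKM in AdCre. It was higher in AdCre in 2 of 3 pairs, with a fold of 1.20 (interval 0.671 to 2.14) and an adjusted p of 0.88 in limma. Bmp4 (chr14:46383520-46390669, minus strand), which acts in the outflow tract and second heart field, stood at 4.05, 7.07 and 10.7 FPKM in AdGFP and at 4.53, 8.41 and 11.9 FPKM in AdCre. The pair differences were alike, at 0.16, 0.25 and 0.15 on the log2 scale, beside an SD of 0.69 among the samples of either group. The fold was 1.14, its interval 0.552 to 2.34 without the block and 0.984 to 1.31 with it, and the adjusted p in limma 0.94 and 0.25.

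Bmp6 (chr13:38345107-38500302, plus strand), an endothelial ligand that also sets iron balance, stood at 6.34, 6.97 and 10.9 FPKM in AdGFP and at 5.70, 7.35 and 11.5 FPKM in AdCre. Its fold was 1.00 with an interval of 0.608 to 1.64, or of 0.854 to 1.17 with the block. For Tgfb3, Bmp4 and Bmp6 alike, sample 3 was the highest and sample 1 the lowest of each group, whereas for Inhba and Bmp2 sample 1 was the highest and sample 3 the lowest. Bmp10 (chr6:87428994-87437677, plus strand), a ligand made by atrial and trabecular cardiomyocytes, was below the filter, at 0.216, 0.088 and 0.081 FPKM in AdGFP (24, 10 and 9 reads) and at 0.334, 0.267 and 0.474 FPKM in AdCre (48, 31 and 59 reads). Its groups did not overlap, and the reads summed to 43 in AdGFP and 138 in AdCre, a ratio per sequenced read of 2.93 with a counting interval of 2.06 to 4.22 (counting error only), beside 13.7% of comparable low genes without overlap. Fitted without a filter the log2 difference was 1.03 with an adjusted p of 0.61 in limma, and 0.32 with the block.

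The direction within pairs uses the same differences as the blocked fit and is given as a description. The level was higher in AdCre in all 3 pairs for 4 of the 8 tested ligands (Tgfb1, Bmp4, Bmp7 and Inhba) against 23.9% of all genes tested, and lower in all 3 pairs for 0 against 24.5%. Since the members were chosen by name with earlier results known, these counts describe the list and are not a test of it.

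Of 23 other ligands of the superfamily, 7 were expressed at a level that could be tested, and with the block 2 rose and 0 fell, against 2.64% and 3.51% of all genes. Without pair 1, 2 or 3 the blocked calls in this list numbered 1, 0 and 0. Inhbb, the beta B chain of activin B, stood at 5.80, 10.8 and 8.87 FPKM in AdGFP and at 9.63, 15.6 and 15.1 FPKM in AdCre, a log2 difference of 0.67 with an adjusted p of 0.49 in limma and 0.023 with the block. Bmp8b, a BMP of germ cells and brown fat, stood at 0.501, 0.234 and 0.052 FPKM in AdGFP and at 1.28, 1.09 and 0.791 FPKM in AdCre, a log2 difference of 1.86 with adjusted p of 0.34 and, with the block, 0.049. The size went from 0.71 with a pseudocount of 1 to 2.40 with 0.01, and the blocked call was lost with a pseudocount of 0.01 (adjusted p 0.068 in limma), with median centring (0.0503) and without any 1 pair (0.070, 0.155 and 0.147). Of its 50-base words 5.77% also occur in other genes, mostly Bmp8a, and 12.2% of its exon bases face a gene on the other strand, so its value is uncertain. Inha, the inhibin alpha chain that pairs with activin beta chains (named after its values were seen), stood at 6.89, 6.58 and 4.87 FPKM in AdGFP and 4.74, 7.64 and 2.01 FPKM in AdCre and was not called (adjusted p with the block 0.29 in limma). The median log2 difference of these 7 ligands was −0.01.

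Of 18 receptors and co-receptors, 14 were tested and their median log2 difference was −0.16. With the block 2 rose and 2 fell (4 of 14 against 6.15% of all genes), and 3, 1 and 0 were called without pair 1, 2 or 3. None was called without the block, with 3 at an unadjusted p under 0.05 against 10.2% of all genes. Eng, which encodes endoglin, an endothelial co-receptor of TGF-beta and BMP ligands, stood at 45.9, 53.4 and 68.0 FPKM in AdGFP and at 70.9, 73.5 and 101.1 FPKM in AdCre, with no overlap, a log2 difference of 0.55 and a blocked adjusted p of 0.023 in limma. Acvrl1, the endothelial type I receptor ALK1, had a log2 difference of 0.42 and a blocked adjusted p of 0.049, or 0.0502 with a pseudocount of 0.01. The 2 that fell were glycosylphosphatidylinositol-anchored BMP co-receptors: Rgma at 25.4, 31.5 and 21.8 FPKM in AdGFP and 13.9, 17.6 and 11.1 FPKM in AdCre, by 0.89 on the log2 scale (blocked adjusted p 0.010 in limma, 0.26 without the block), and Hfe2, the hemojuvelin gene of muscle and liver, by 0.57 (blocked adjusted p 0.041, but 0.070 after TPM, 0.054 after quantile normalization, and 0.140 and 0.146 without pair 2 and 3). The main receptor kinases for the ligands described here, Tgfbr1, Tgfbr2, Acvr1, Acvr1b, Acvr2a, Bmpr1a and Bmpr2, were all tested and not called in either fit. Of these Bmpr1a, the principal BMP type I receptor, had groups that did not overlap, at 32.0 to 41.1 FPKM in AdGFP and 26.2 to 30.8 FPKM in AdCre (blocked adjusted p 0.080 in limma and 0.036 in voom). Receptors other than Eng, Acvrl1, Rgma and Hfe2 were named after their values were seen.

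All 16 genes of SMADs and their regulators were tested, and with the block 1 rose and 1 fell, against 2.64% and 3.51% of all genes, with 1, 0 and 0 called without pair 1, 2 or 3. Smad3, an effector of TGF-beta and activin, stood at 8.20, 9.06 and 10.96 FPKM in AdGFP and at 12.3, 11.4 and 15.4 FPKM in AdCre, with no overlap, a log2 difference of 0.47 and a blocked adjusted p of 0.043 in limma (0.42 without the block). Bambi, a pseudoreceptor that blocks signalling and is itself a target of BMP signalling, fell by 0.60 on the log2 scale, from 36.7, 37.5 and 22.8 FPKM in AdGFP to 24.2, 23.7 and 15.4 FPKM in AdCre (blocked adjusted p 0.018, 0.50 without the block). It was not part of voom, since its values did not come out as whole reads. The list's median was −0.04.

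Extracellular antagonists bind ligands and keep them from receptors, and 11 of the 17 listed were tested, with a median log2 difference of 0.30. With the block 3 rose and 1 fell, against 2.64% and 3.51% of all genes, with 2, 0 and 0 called without pair 1, 2 or 3. Fst, which encodes follistatin, the main binder of activin and myostatin, stood at 37.4, 23.6 and 24.6 FPKM in AdGFP and at 53.7, 49.6 and 50.6 FPKM in AdCre. The groups did not overlap, and the log2 difference was 0.87 (SE 0.189), with an adjusted p of 0.24 in limma and 0.027 with the block. Wfikkn2, a binder of myostatin and GDF11, stood at 0.994, 1.17 and 0.551 FPKM in AdGFP and at 2.42, 2.297 and 1.16 FPKM in AdCre (log2 difference 1.02, or 0.62 with a pseudocount of 1, blocked adjusted p 0.034). Nbl1, a DAN-family BMP antagonist, differed by 0.41 (blocked adjusted p 0.047), and Dcn, the matrix proteoglycan decorin, which binds TGF-beta, fell by 0.79 (blocked adjusted p 0.023).

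Of the 18 genes for latency and activation, which hold the latent complex in the matrix, release it or cleave the precursors, all were tested and 0 were called in either limma fit, with 1 at an unadjusted p under 0.05. In voom with the block 1 was called higher and 2 lower, against 4.91% and 6.38% of all genes. Over all pathway lists together that fit called 10 genes higher and 6 lower. The 2 with the smallest p in the fit without the block were Fbn2, a microfibril gene that tethers latent ligands, at 10.97, 10.5 and 12.3 FPKM in AdGFP and 6.24, 8.87 and 7.40 FPKM in AdCre (log2 difference −0.59, blocked adjusted p 0.056 in limma), and Pcsk5, a precursor-cleaving protease (log2 difference −0.63, blocked adjusted p 0.17). Readouts of the pathway were mostly without a call: of 13 TGF-beta target genes 0 were called in either limma fit (0 at an unadjusted p under 0.05 without the block, and 0 in voom), and of 11 tested BMP target genes (12 listed) 1 fell with the block. The TGF-beta targets with the smallest p in the fit without the block were Smad7, which encodes an inhibitory SMAD, at 24.6, 20.3 and 16.4 FPKM in AdGFP and 17.6, 17.8 and 17.2 FPKM in AdCre (log2 difference −0.20, adjusted p 0.76 in limma and 0.35 with the block), and Ltbp2, a latent TGF-beta binding protein gene (log2 difference 0.27, adjusted p 0.77 and, with the block, 0.35). Ccn2, a matricellular target (named after its values were seen), had a log2 difference of 0.35 and a blocked adjusted p of 0.13 in limma, or 0.046 without pair 1. The BMP target that fell was Bambi, given above. The list medians were 0.03 for TGF-beta and 0.03 for BMP targets, and Id1, Id2 and Id3, the usual BMP readouts (named after their values were seen), differed by 0.06, 0.03 and 0.07 on the log2 scale with blocked adjusted p of 0.72, 0.91 and 0.69 in limma. The lists share some genes, and over all 109 different pathway genes, of which 82 were tested, 8 rose and 4 fell with the block (12 of 82 against 6.15% of all genes), 0 were called without it (13 at an unadjusted p under 0.05 against 10.2% of all genes, 0 in voom), and 9, 1 and 0 were called when pair 1, 2 or 3 was left out. In the blocked fit with no filter or with no trend 0 pathway genes were called. Without pair 1, Bmp8b, Acvrl1, Smad3, Wfikkn2 and Nbl1 lost their calls, and without pair 2 all but Rgma did.

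**Figure D3:**
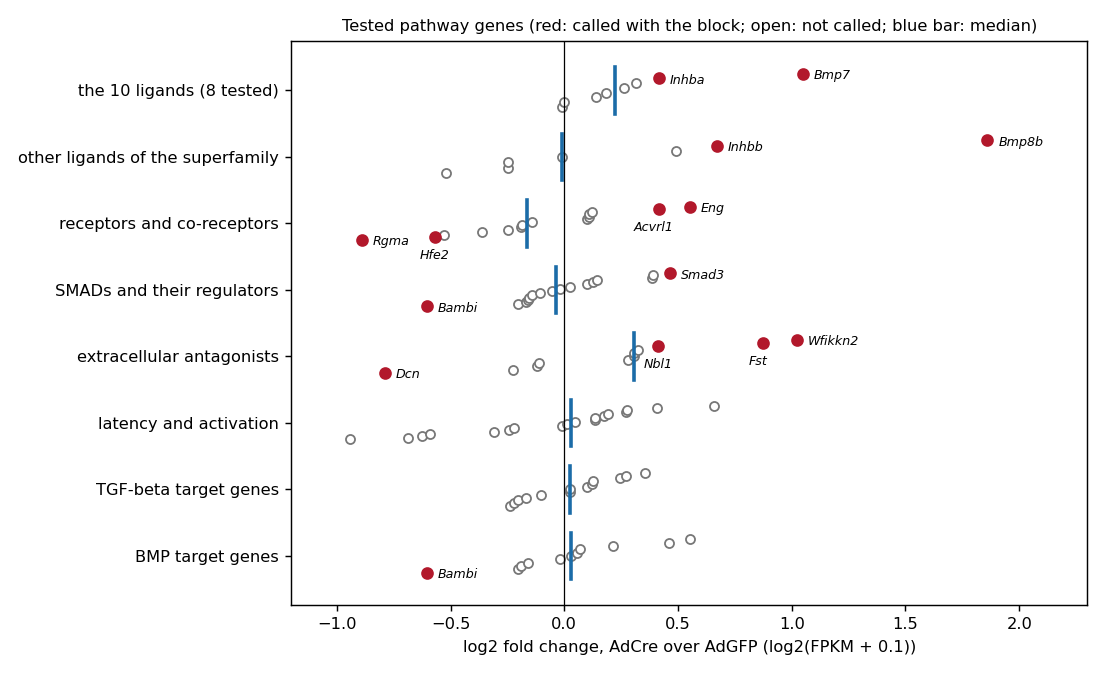
Log2 fold change (horizontal axis, AdCre over AdGFP on the log2(FPKM + 0.1) scale) of each tested gene, in rows by list, with genes called with the replicate block in red and named, uncalled genes open, and a blue bar at the list's median. Called genes lie on both sides of 0 for receptors, SMADs and antagonists, and at most 4 genes are called in any list.

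Levels of cell type markers differed alongside these values, with 0 markers of any list called without the block in limma or voom. At an unadjusted p under 0.05 stood 4 cardiomyocyte, 2 endothelial, 1 fibroblast and 1 epicardial or mesothelial markers, against 10.2% of all genes. Blocked calls are to be read against 2.64% of all genes called higher and 3.51% lower. The summed cardiomyocyte markers stood at 1624 to 2446 FPKM in AdGFP and at 907 to 1593 FPKM in AdCre, with no overlap, and with the block 5 of 8 were called lower and 0 higher. Of 9 endothelial markers 3 were called higher with the block and 0 lower (summed level 49.1 to 78.9 FPKM in AdGFP and 68.3 to 104.9 in AdCre), and of 7 tested macrophage markers 2 were higher and 0 lower (49.5 to 272 and 87.8 to 343). Of 9 fibroblast markers 1 was called higher and 3 lower (2673 to 4729 and 2390 to 3432), of 6 epicardial or mesothelial markers 0 and 1 (110.2 to 215 and 103.0 to 130.3), and of 7 mural markers 0 and 0 (139.2 to 160.0 and 132.1 to 175). Without pair 1, 2 or 3 the blocked calls numbered 5, 4 and 0 for cardiomyocyte, 2, 0 and 0 for endothelial, 1, 0 and 0 for macrophage, 1, 0 and 0 for fibroblast, and 4, 0 and 0 for epicardial or mesothelial markers. None of the marker genes was at 0 in all samples. These differences stand beside the higher Bmp7, Inhba, Eng and Acvrl1 and the lower Dcn, which is also on the fibroblast list, and their part in the ligand differences was not tested. Within both groups the summed macrophage, endothelial and fibroblast levels were all highest in sample 3 and lowest in sample 1. That order was also seen for Tgfb3, Bmp4 and Bmp6, and it is the reverse of that for Inhba.

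**Figure D4:**
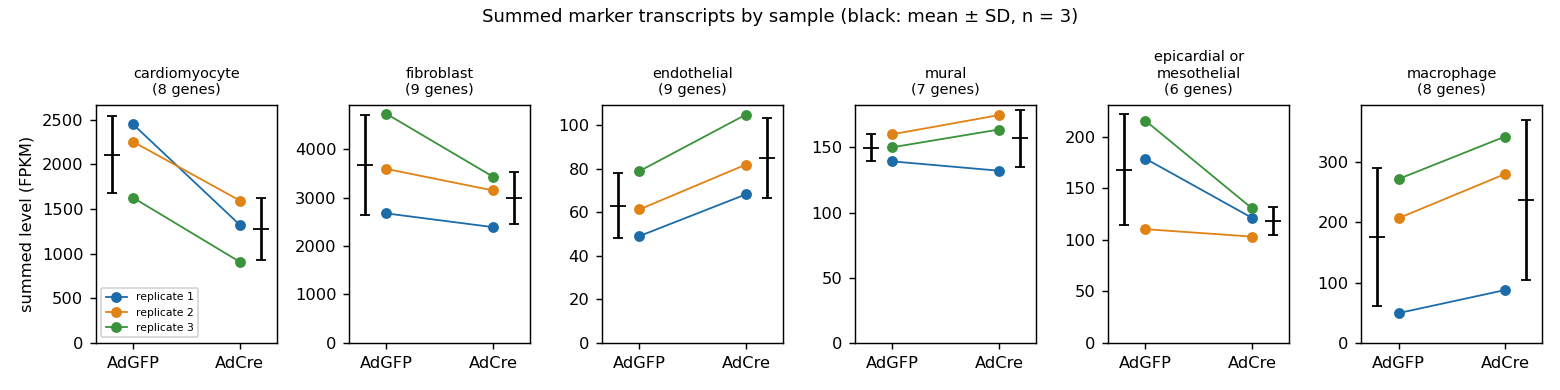
Summed level in FPKM (vertical axis, from 0) of 6 marker lists in each sample, with lines joining samples that carry the same number and black marks for the mean ± SD. The cardiomyocyte sum is lower in each AdCre sample than in any AdGFP sample, and the endothelial and macrophage sums are higher within each pair.

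The genes whose levels ran most like the 2 ligands called with the block were named by Pearson correlation of log2(FPKM + 0.1) over the 6 samples, which share numbers and groups, so that the value is a description only. For Bmp7 they were Wfikkn2 (0.995), Nup62cl (0.995) and Rfk (0.989), among 43 genes above 0.95. For Inhba they were Dusp9 (0.997), a phosphatase of ERK kinases, Arhgap27 (0.993) and Kirrel3 (0.993), among 97 genes above 0.95. Each ligand was compared with 13793 genes.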

How the data were processed

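Messenger RNA of 6 cultures was sequenced, and the authors deposited FPKM for 54532 Ensembl gene IDs, 1 column per sample (0 columns without a sample). The submitters' processing notes name fastp, STAR 2.5, HTSeq 0.6.1 and mm10. The annotation and strand use are not given in the sources used here. Symbols, exon lengths and coordinates came from GENCODE M21 (GRCm38), which held 54495 of the IDs. Reads recovered from FPKM and exon length (tolerance 0.05 reads) gave 24.7 M to 25.9 M reads in AdGFP and 25.3 M to 31.6 M in AdCre. They were used for voom and for counting intervals.

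limma 3.58.1 (R 4.3.3) was fitted to log2(FPKM + 0.1) for the 13794 genes whose mean reached 0.5 FPKM, with an intensity trend and Benjamini-Hochberg adjustment, and a call was an adjusted p under 0.05. The pseudocount makes fold changes of low genes too small. The study's methods state no test for these data. The test was also run on simulated data. With 3 against 3 samples an exact permutation test cannot go below a p of 0.1, so none was used.

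The labels call the samples biological replicates and do not say what their number marks. Deviations from the group mean correlated at 0.57, 0.27 and 0.51 between same-numbered samples and at −0.50 to 0.04 between others, over 13794 genes, and the numbers were therefore taken to pair the samples, from the values alone. The ligands and gene lists were chosen with earlier results of these data known. 1 gene of the pathway lists is not reported here and was left out of their counts. Named were all ligands, Rit1, and from each list the called genes (at most 5) or, with none, the 2 with the smallest p. Alternatives were other pseudocounts, filters and scalings, no trend, voom, the replicate block, and leaving out samples or pairs.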

Additional observations from a re-analysis of the deposited data

How the results depend on the processing

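The replicate block decided whether any ligand was called. Without it, 0 of 8 ligands and 0 pathway genes passed under any of the alternatives run. With it, 2 ligands (Bmp7 with a log2 difference of 1.05 and Inhba with 0.41) and 12 pathway genes passed. The 2 ligands also passed in the blocked fit with pseudocounts of 1 (0.90 and 0.41) and 0.01 (1.07 and 0.42), rescaling to TPM (1.15 and 0.50), median centring (1.06 and 0.43), quantile normalization (1.06 and 0.45) and voom (1.07 and 0.42), where 12, 10, 12, 11, 11 and 16 pathway genes passed. In the blocked fit with no filter and with no trend neither passed, at adjusted p of 0.083 and 0.073 for Bmp7 and of 0.114 and 0.120 for Inhba in limma, and the cause was not tested. With pairs left out, blocked calls numbered 0 to 2 ligands and 0 to 9 pathway genes, with Bmp7 at 0.90 to 1.19 and Inhba at 0.35 to 0.47 on the log2 scale. Leaving out pair 3 (AdGFP 3 and AdCre 3) left no ligand called. The blocked fits other than the plain one and its pairs were chosen after the data were seen.

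Over all genes the block raised the calls from 1 higher and 0 lower to 364 and 484. Blocked calls were 338 and 446 with a pseudocount of 1, 336 and 446 with 0.01, 11 and 6 with no filter, 538 and 337 after TPM, 358 and 420 after median centring, 361 and 401 after quantile normalization, 0 higher with no trend, and 649 and 844 in voom. Without the block they were 3 higher with a pseudocount of 1, 0 with no filter, 3 higher and 1 lower with no trend, and 0 higher in voom. Leaving out samples gave 0 to 2 higher, and leaving out pair 1, 2 or 3 in the blocked fit gave 324, 50 or 1 higher and 448, 99 or 0 lower. Rescaling to TPM moved the median of all genes to 0.09 and the share of blocked calls that were higher from 42.9% to 61.5%.

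Differences near 0 turned sign. Tgfb3 (−0.01) went to 0.078 after TPM, 0.0017 after median centring and 0.041 after quantile normalization, with and without the block, and ranged from −0.16 to 0.14 with 1 sample left out. Bmp6 (9.8e-05) went to −0.00013 with a pseudocount of 0.01 in both fits, to −0.0079 in voom and to −0.038 and −0.037 in the blocked fit without pair 2 and 3, and ranged from −0.27 to 0.24. With 1 sample left out Bmp4 ranged from −0.18 to 0.56 and Bmp2 from −0.028 to 0.65. Bmp7 ranged from 0.71 to 1.40, Inhba from 0.26 to 0.56, Tgfb1 from 0.22 to 0.37 and Tgfb2 from 0.0056 to 0.29. Over all 27 alternatives these 4 kept their sign, with Tgfb1 at 0.19 to 0.41. Mstn rested on as few as 2 reads a sample and Bmp10 on as few as 9.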
